A study of Xenopus laevis with 4 samples.

Results

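The transcripts followed here encode the SoxB1 transcription factors (sox1, sox2 and sox3), the related SoxB2 factor sox21 and the RNA-binding protein Musashi-1 (msi1). They were measured in posterior explants of *Xenopus laevis* embryos after picrotoxin. Every gene model with 1 of these 5 base symbols was taken, and transcripts were summed by their RefSeq symbol. That gave 9 gene models of the 39176 in the table: sox1.L, sox1.S, sox2.L, sox3.L, sox3.S, sox21.L, sox21.S, msi1.L and msi1.S. *Xenopus laevis* is allotetraploid, and .L and .S mark the copies (homeologs) on its long and short subgenomes. The annotation of Xenopus_laevis_v10.1 places the sox1 and sox21 copies together on chromosomes 2L and 2S. It places sox2.L on 5L, the sox3 copies on 8L and 8S and the msi1 copies on 1L and 1S. A single sox2 model, sox2.L, was matched.

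Stage 26 embryos were cut behind the otic vesicle, and the posterior pieces were kept for 3 h, either with picrotoxin at 0.5 mM or as controls, before the ventral yolk was taken off. Picrotoxin is a plant toxin that plugs the chloride pore of GABA-A receptors. There were 2 libraries per group, each from a pool of explants of 3 embryos, and the labels do not say whether they share a clutch. What the control medium held is not given either. The labels name no genotype or strain.

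SoxB1 factors bind DNA through an HMG box and hold neural cells in a dividing, undifferentiated state, and their loss lets progenitors leave the cell cycle and become neurons. The SoxB2 factor sox21 recognises similar DNA sites but mostly represses, and in chick it was found to act against the SoxB1 factors and to promote differentiation. Musashi-1 binds messenger RNA in neural stem cells. In mouse it blocks the translation of Numb, an inhibitor of Notch signalling. In *Xenopus* embryos sox2 and sox3 mark the neural plate and later the ventricular zone of the neural tube, and also sensory placodes.

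The libraries held 20285273 and 20974160 estimated counts in picrotoxin replicates 1 and 2, and 18164631 and 20660589 in control replicates 1 and 2. Of these, 42.0% and 25.1% fell on ribosomal RNA models in the picrotoxin libraries, against 38.0% and 39.6% in the control libraries. Picrotoxin replicate 2 thus stood apart in its ribosomal RNA share. Levels are given as CPM, counts scaled to library size and then by TMM normalization factors. Neural progenitor markers other than the members (the nes, fabp7, slc1a3, pax6 and hes5.1 copies) were all detected and summed to 239 to 313 CPM. Of 6 gene models of the forebrain and eye genes rax, otx2 and hesx1, which mark tissue in front of the cut, 5 had at most 6 counts in any library. The other, the retinal factor gene rax.S, had 108 to 137 counts (4.45 to 7.30 CPM). Whether these are transcripts of rax.S or reads of another gene was not tested. The lens crystallin models cryaa.S, crybb1.L, crybb1.S and cryba1.L were at or near 0, at no more than 0.27 CPM.

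SoxB1 transcripts stood lower in both picrotoxin libraries than in both control libraries. Summed over the 5 SoxB1 models, the level was 23.9 and 24.4 CPM in the picrotoxin libraries, against 35.2 and 34.8 CPM in the control libraries. The mean with picrotoxin was 69.0% of the control mean. No single gene model passed the test over all genes. In this bulk tissue, fewer cells of a type and less RNA per cell cannot be told apart.

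sox2.L, the SoxB1 gene most widely used as a neural stem cell marker, had 6.18 and 6.31 CPM (116 and 153 counts) with picrotoxin, against 9.43 and 9.53 CPM (166 and 189 counts) in controls. Both picrotoxin libraries lay below both control libraries, and the pools of each group lay close together. Its means were 6.24 ± 0.09 CPM with picrotoxin and 9.48 ± 0.07 CPM in controls (SD, n = 2 each). The log2 fold change was -0.60 ± 0.16 (SE; 95% interval -0.92 to -0.28). Its Benjamini-Hochberg adjusted p was 0.173 in the quasi-likelihood test of edgeR. A count as low as 116 has a counting error of 9.28%, which is wider than the gap between the pools, so the SD of this pair of pools understates the error.

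sox3.L, which carried the most counts of the SoxB1 models, had 8.90 and 9.11 CPM (167 and 221 counts) with picrotoxin, against 13.75 and 12.51 CPM (242 and 248 counts) in controls. The groups did not overlap. The log2 fold change was -0.54 ± 0.14 (SE; 95% interval -0.83 to -0.26; adjusted p = 0.172, edgeR). Its homeolog sox3.S had 6.50 and 7.30 CPM (122 and 177 counts) with picrotoxin, against 9.43 and 9.73 CPM (166 and 193 counts) in controls. The copies thus showed the same order of libraries between groups. The sox3.S log2 fold change was -0.47 ± 0.15 (SE; 95% interval -0.79 to -0.15; adjusted p = 0.379, edgeR).

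The sox1 copies, which encode the third SoxB1 factor, were sparse, with 16 to 36 counts in a library. sox1.L had 1.49 and 0.95 CPM with picrotoxin, against 1.19 and 1.82 CPM in controls, and the groups overlapped. Its log2 fold change was -0.33 ± 0.36 (SE; 95% interval -1.08 to 0.41; adjusted p = 0.902, edgeR), and without control replicate 2 it was 0.01. sox1.S had 0.85 and 0.74 CPM with picrotoxin, against 1.36 and 1.26 CPM in controls, with no overlap. Its log2 fold change was -0.72 ± 0.39 (SE; 95% interval -1.52 to 0.08; adjusted p = 0.711, edgeR). At 16 counts the counting error alone is 25%, so that for sox1 both no change and a fall as large as that of sox2.L lie within the intervals.

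**Figure D1:**
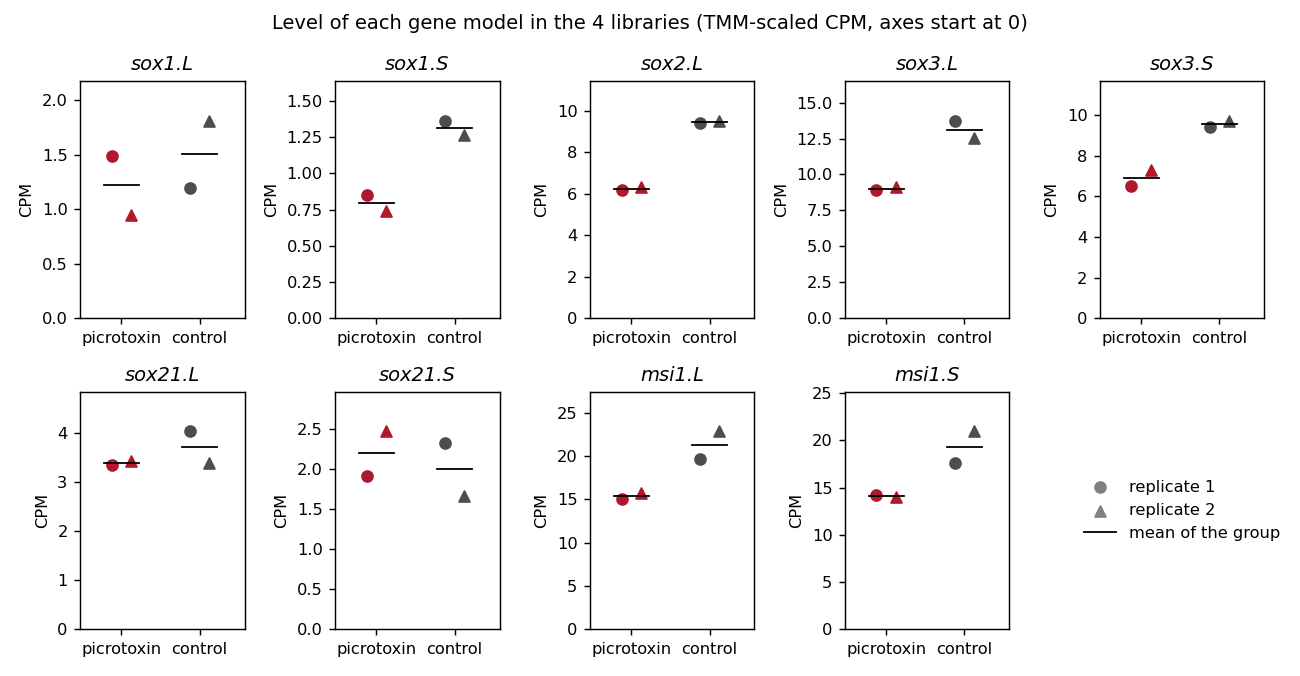
Each panel plots the TMM-scaled CPM of 1 gene model in the 2 picrotoxin libraries (red) and the 2 control libraries (grey), with circles for replicate 1, triangles for replicate 2 and a line at the group mean; axes start at 0. In sox1.S, sox2.L, sox3.L, sox3.S, msi1.L and msi1.S both picrotoxin points lie under both control points, while sox1.L, sox21.L and sox21.S overlap.

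The SoxB2 factor sox21 did not share this order of the libraries. sox21.L had 3.36 and 3.42 CPM (63 and 83 counts) with picrotoxin, against 4.03 and 3.38 CPM (71 and 67 counts) in controls. sox21.S had 1.92 and 2.47 CPM (36 and 60 counts) with picrotoxin, against 2.33 and 1.66 CPM (41 and 33 counts) in controls. In both copies the groups overlapped. The log2 fold changes were -0.12 ± 0.22 for sox21.L (SE; 95% interval -0.58 to 0.33; adjusted p = 0.949, edgeR) and 0.16 ± 0.29 for sox21.S (SE; 95% interval -0.44 to 0.75; adjusted p = 0.952, edgeR). The sign of sox21.L turned without control replicate 1 (0.01), and that of sox21.S without control replicate 2 (-0.07) or picrotoxin replicate 2 (-0.05). Both intervals include no change, and that of sox21.L also includes the value of sox3.L, though not that of sox2.L. The difference between the changes of sox21 and of the SoxB1 genes was not tested. Within each library, the ratio of summed sox21 to summed SoxB1 CPM, which library scaling does not touch, was 0.220 and 0.242 with picrotoxin, against 0.181 and 0.145 in controls. The ratio was thus higher in both picrotoxin libraries, and it rests on 99 to 143 sox21 counts per library. With picrotoxin, mean summed sox21 was 97.9% of its control mean, so the ratio mostly restates the lower SoxB1 sum.

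msi1, the RNA-binding member, was lower with picrotoxin in both copies by almost the same amount. msi1.L had 15.0 and 15.8 CPM (282 and 383 counts) with picrotoxin, against 19.7 and 22.9 CPM (346 and 454 counts) in controls. msi1.S had 14.2 and 14.0 CPM (266 and 339 counts) with picrotoxin, against 17.62 and 20.98 CPM (310 and 416 counts) in controls. In both copies the groups did not overlap, and control replicate 2 was the highest library. The log2 fold change was -0.47 ± 0.12 for msi1.L (SE; 95% interval -0.72 to -0.21; adjusted p = 0.187, edgeR). It was -0.46 ± 0.13 for msi1.S (SE; 95% interval -0.72 to -0.20; adjusted p = 0.224, edgeR). Without control replicate 2 these values were -0.35 for msi1.L and -0.32 for msi1.S. Summed over both copies, msi1 stood at 29.5 ± 0.41 CPM with picrotoxin and 40.6 ± 4.67 CPM in controls (SD, n = 2 each), so that the picrotoxin mean was 72.7% of the control mean.

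All 9 gene models had enough counts to be tested, and 0 of them passed an adjusted p of 0.05 in edgeR. Of the 26752 tested genes, 0.176% did, 0.0935% as lower and 0.0822% as higher. Genes called by that test had an unadjusted p of at most 8.4e-05, while the smallest among the 9 models was 0.000669, for sox3.L. At an unadjusted p under 0.05, 5 of the 9 models were lower (sox2.L, both sox3 copies and both msi1 copies) and 0 higher, against 4.16% of all tested genes lower and 3.35% higher. DESeq2 likewise had 5 models under an unadjusted p of 0.05 and left all 9 without an adjusted p. The picrotoxin libraries lay below both control libraries in 6 of the 9 models and above both in 0, against 18.9% and 18.2% of all tested genes. In 8 of the 9 the log2 fold change was below 0, against 50.1% of all tested genes. The median of the 9 was -0.47, beside 0.00 for all tested genes. The members were chosen with earlier results of these data known, and all genes but sox2 enter with both copies. Counts of models set against shares of all tested genes thus describe the members and are no test of them. Of all tested genes, 2.67% had a lower log2 fold change than sox2.L, 3.42% a lower one than sox3.L and 4.97% a lower one than msi1.S.

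**Figure D2:**
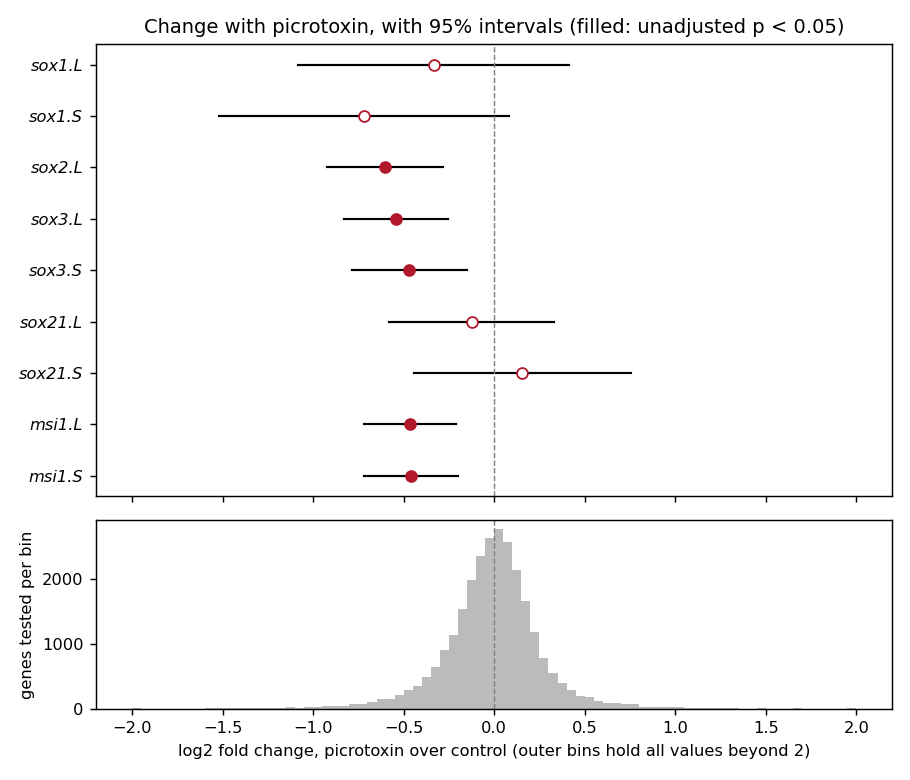
The upper part plots the log2 fold change of picrotoxin over control for each gene model with its 95% interval, filled where the unadjusted p was under 0.05; the lower part is the histogram of the log2 fold changes of all 26752 tested genes. The 5 filled points lie between -0.60 and -0.46, in the left flank of the histogram, and the sox1 and sox21 intervals cross 0.

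The filter on low counts decided whether some of these models passed. With no filter, 35819 genes were tested, and 0.329% of genes were called lower in edgeR. There sox3.L (adjusted p = 0.0414), sox2.L and msi1.L (both adjusted p = 0.0476) passed. Upper quartile scaling gave sox3.L, sox2.L and msi1.L adjusted p of 0.137, 0.145 and 0.137 in edgeR. With running chromosome medians removed these were 0.300, 0.316 and 0.264, and with library totals only each was 0.9996. With the L and S copies of each gene summed before the fit, sox3 was at -0.51 ± 0.11 (SE; 95% interval -0.75 to -0.27; adjusted p = 0.0732, edgeR) and msi1 at -0.46 ± 0.11 (SE; 95% interval -0.68 to -0.24; adjusted p = 0.0795, edgeR). Summed sox21 was at -0.02 ± 0.19 (SE; 95% interval -0.40 to 0.37; adjusted p = 0.992, edgeR). The 5 models with an unadjusted p under 0.05 kept a negative log2 fold change under every alternative run, from -0.49 to -0.61 for sox2.L, -0.43 to -0.61 for sox3.L, -0.35 to -0.56 for sox3.S, -0.35 to -0.57 for msi1.L and -0.32 to -0.57 for msi1.S.

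The shares of the single genes in the SoxB1 counts were described without a test. sox2.L took 25.8% and 25.8% of the SoxB1 CPM in the picrotoxin libraries, against 26.8% and 27.4% in the control libraries. These shares did not overlap between groups but lay close together. They rest on 116 to 189 sox2.L counts, and a count of 116 has a counting error of 9.28%, so no shift of sox2.L is read from them. The shares of the sox3 and sox1 copies overlapped between groups. The sox3 copies took 64.4% and 67.2% with picrotoxin, against 65.9% and 63.8% in controls. The sox1 copies took 9.80% and 6.93% with picrotoxin, against 7.27% and 8.83% in controls. They are shares of counts, which grow with transcript length, and no length was used, so they do not rank the genes by level. The ratio of summed msi1 to summed SoxB1 CPM was 1.22 and 1.22 with picrotoxin, against 1.06 and 1.26 in controls, so its groups overlapped.

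L and S copies were compared by the share of the L copy in the counts of both. Exact Clopper-Pearson 95% intervals cover counting error only. For msi1 the L share was 51.5% (47.2% to 55.7%) and 53.0% (49.3% to 56.7%) with picrotoxin, against 52.7% (48.8% to 56.6%) and 52.2% (48.8% to 55.5%) in controls. Both msi1 copies thus gave nearly equal counts in every library. For sox3 it was 57.8% (51.9% to 63.5%) and 55.5% (50.5% to 60.5%) with picrotoxin, against 59.3% (54.4% to 64.1%) and 56.2% (51.5% to 60.9%) in controls. The sox3.L copy gave more counts than sox3.S in all 4 libraries, and each interval lay above 50%. For sox21 the share was 63.6% and 58.0% with picrotoxin, against 63.4% and 67.0% in controls, and for sox1 it was 63.6% and 56.1% with picrotoxin, against 46.7% and 59.0% in controls.

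The L over S ratio showed no difference between groups beyond its error for any of the 4 pairs. The log2 ratio differed between picrotoxin and control by -0.01 for msi1 (95% interval -0.33 to 0.31; adjusted p = 0.995, limma over 6299 pairs) and by -0.07 for sox3 (95% interval -0.48 to 0.35; adjusted p = 0.992, limma). It differed by -0.27 for sox21 (95% interval -0.95 to 0.42; adjusted p = 0.970, limma) and by 0.40 for sox1 (95% interval -0.56 to 1.36; adjusted p = 0.970, limma). Of all pairs tested, 0.0794% passed. At an unadjusted p under 0.05, 0 of the 4 pairs passed, against 5.94% of all pairs. The exact two-sided permutation test over the 4 libraries gave p = 0.667 for sox1, sox3 and sox21 and p = 1 for msi1, and cannot give less than 0.333 in this design. The copies of a pair may differ in the length of their models, and how well the counting tells their reads apart is not known, so the share describes counts and not relative transcript number.

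**Figure D3:**
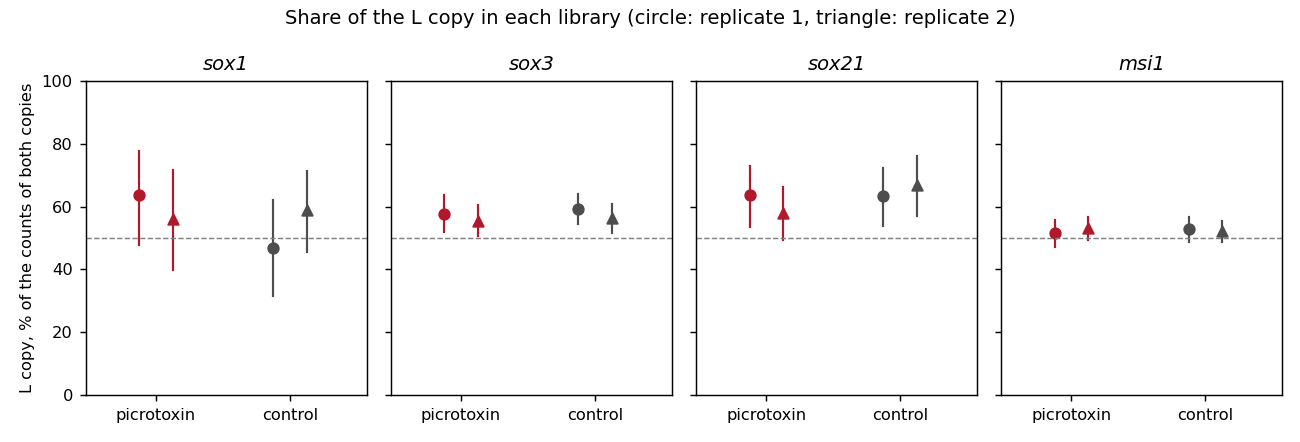
Each panel plots, for 1 homeolog pair, the L copy as a percent of the counts of both copies in the 2 picrotoxin libraries (red) and the 2 control libraries (grey), with exact 95% intervals and a dashed line at 50%. The intervals are narrow for msi1, wide for sox1, and overlap between groups in every pair.

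Each sox model had a single transcript model in the table, while each msi1 copy had 5, of which 1 is a known RefSeq transcript and 4 are predicted. The known transcript took 49.5% and 42.5% of the msi1.L counts with picrotoxin, against 44.2% and 51.0% in controls. It took 31.3% and 24.6% of the msi1.S counts with picrotoxin, against 31.0% and 22.6% in controls. For both copies the groups overlapped. Some predicted transcripts differed widely between pools of the same group. Transcript XM_018229936.2 of msi1.L had 24.0 and 42.0 estimated counts with picrotoxin, against 0.90 and 58.6 in controls. Transcript XM_018235162.2 of msi1.S had 0 and 82.0 estimated counts with picrotoxin, against 52.8 and 62.3 in controls. Other predicted transcripts did not overlap between groups in their share of the copy's counts. For msi1.L, XM_018230177.2 took 11.0% and 9.78% with picrotoxin, against 27.4% and 16.3% in controls. XM_018230017.2 took 17.9% and 21.3%, against 5.55% and 12.3%. For msi1.S, XM_018235154.2 took 14.8% and 10.4% with picrotoxin, against 17.4% and 16.8% in controls. XM_041574397.1 took 6.82% and 6.72%, against 0% and 3.65%. No test was run on single transcripts, whose counts an estimate had to divide among overlapping models.

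**Figure D4:**
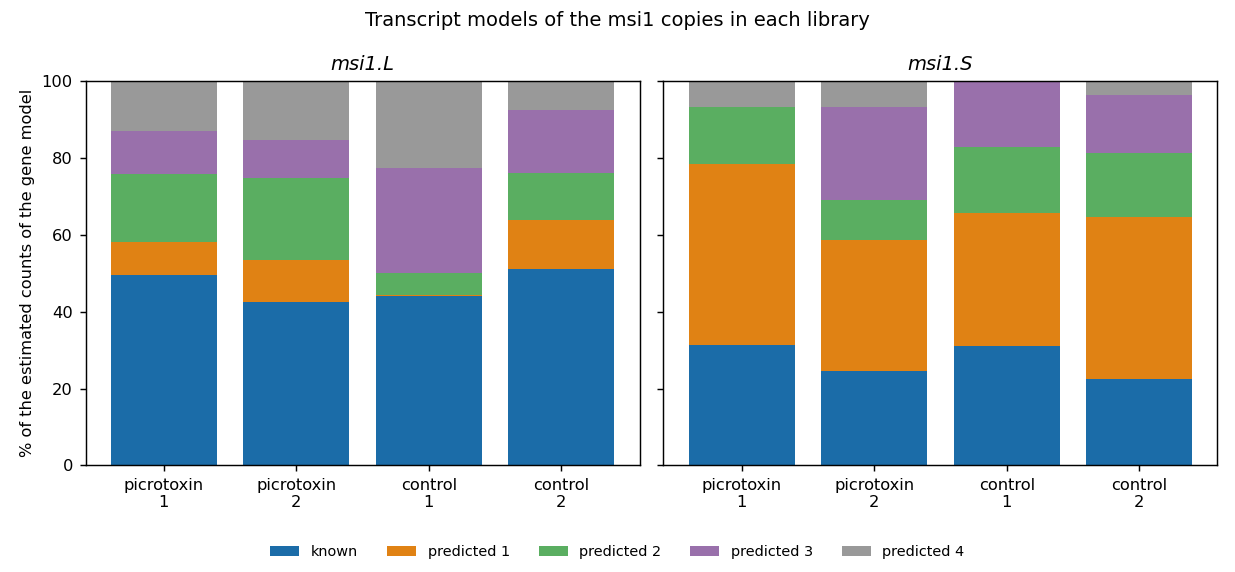
Stacked bars give the percent of the estimated counts of msi1.L and msi1.S that each of their 5 transcript models took in each library; predicted models are numbered within each copy. The known transcript holds 42.5% to 51.0% of msi1.L and 22.6% to 31.3% of msi1.S. Shares of the predicted models vary both between pools of 1 group and between groups.

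The other Sox genes were mixed. Of 22 gene models tested, 0 passed over all genes in edgeR, 12 had a negative log2 fold change, and the median was -0.06. At an unadjusted p under 0.05 in edgeR, 4 were lower and 0 higher, against 4.16% and 3.35% of all tested genes. DESeq2 called 0 and gave 19 of the 22 models no adjusted p. The SoxC genes sox4 and sox11 act in newly born neurons. sox4.L stood at 8.47 and 8.41 CPM with picrotoxin, against 10.4 and 11.8 CPM in controls (log2 fold change -0.39, adjusted p = 0.471, edgeR). Its homeolog sox4.S was at 0.02 and its groups overlapped, and sox4 with both copies summed was at -0.20 (adjusted p = 0.746, edgeR). sox11.L was at -0.28, sox11.S at -0.26 and the SoxD gene sox13.S at -0.34. The remaining SoxB2 gene, sox14, named after its values were seen, was nearly silent, with sox14.L at 0.16 and 0.12 CPM with picrotoxin, against 0.23 and 0.35 CPM in controls.

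A further list held msi2, genes of the families of Musashi-1 targets and, for the most part, other neural RNA-binding proteins; numb itself was not analysed here. Of its 22 tested gene models 0 passed in edgeR, and the median was 0.01. At an unadjusted p under 0.05 in edgeR, 3 were lower and 0 higher, against 4.16% and 3.35% of all tested genes. DESeq2 called 0 and gave 11 of the 22 models no adjusted p. The paralog msi2.S, and numbl.L, cdkn1a.L and cdkn1a.S, which belong to the families of known mammalian Musashi-1 targets, were named by function after values were seen. msi2.S had 1.60 and 1.57 CPM with picrotoxin, against 1.65 and 1.92 CPM in controls (log2 fold change -0.18 ± 0.31, SE). numbl.L had 19.2 and 20.4 CPM with picrotoxin, against 20.0 and 18.6 CPM in controls (0.04 ± 0.12). The cell cycle inhibitor copy cdkn1a.L was at 0.03 ± 0.12 and cdkn1a.S at 0.04 ± 0.26, and the signs of the numbl.L and cdkn1a values turn when 1 library is left out. The 3 lower models were those of the neuronal RNA-binding proteins elavl3.L (-0.48, adjusted p = 0.157), elavl4.L (-0.37, adjusted p = 0.362) and nova2.L (-0.33, adjusted p = 0.425), all from edgeR.

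SoxB1 partners and upstream regulators, 43 tested models, had a median of -0.12 with 0 past the threshold in edgeR. At an unadjusted p under 0.05 in edgeR, 5 were lower and 0 higher, against 4.16% and 3.35% of all tested genes. DESeq2 called 0 and gave 34 of the 43 models no adjusted p. cdx4.L, a caudal factor of the posterior neural plate and tailbud, had 25.1 and 30.8 CPM with picrotoxin, against 42.3 and 34.5 CPM in controls (log2 fold change -0.45, adjusted p = 0.228, edgeR). It passed without picrotoxin replicate 2 (-0.61, adjusted p = 0.0172) and, at an adjusted p of 0.0234, with every detected gene kept, but was at -0.30 (adjusted p = 0.923) when control replicate 1 was left out and at -0.32 (adjusted p = 0.521) when picrotoxin replicate 1 was. cdx4.S was at -0.33.

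Other neural progenitor genes lay mostly on the same side as sox2 and sox3. Of the 9 marker models named above, 8 had both picrotoxin libraries below both control libraries, against 18.9% of all tested genes. The sum of the 9 was 251 and 239 CPM with picrotoxin, against 313 and 303 CPM in controls. All 9 belong to a wider list that was chosen with earlier results of these data known. The share of models without overlap was not computed over that list. Of the 66 tested models of the wider list, 1 fell, 0 rose and 65 did not pass in edgeR (DESeq2 called 0 and gave 40 of the models no adjusted p), where 0.0935% of all tested genes fell. At an unadjusted p under 0.05, 12 were lower and 0 higher, against 4.16% and 3.35% of all tested genes. In 48 of the 66 the log2 fold change was negative, against 50.1% of all tested genes, and the median was -0.12. The sum over the wider list was 1917 and 1852 CPM with picrotoxin, against 1909 and 1907 CPM in controls, and overlapped. The gene that fell was fabp7.L, which encodes the radial glia fatty acid binding protein, at 6.61 and 5.24 CPM with picrotoxin, against 14.1 and 12.3 CPM in controls (log2 fold change -1.16, adjusted p = 0.000532). The intermediate filament gene nes.L had 30.0 and 36.1 CPM with picrotoxin, against 52.4 and 42.8 CPM in controls (-0.52, adjusted p = 0.0884). The Notch effector gene hes5.1.L was at -0.52 (adjusted p = 0.264) and slc1a3.S, which encodes a glutamate transporter of glia, at -0.38 (adjusted p = 0.228). nes.L passed with upper quartile scaling (adjusted p = 0.0432), with no filter (adjusted p = 0.00234) and when picrotoxin replicate 2 was left out (adjusted p = 0.00447), but was at -0.37 (adjusted p = 0.700) when control replicate 1 was left out, at -0.40 (adjusted p = 0.291) when picrotoxin replicate 1 was and at -0.38 (adjusted p = 0.180) with its copies summed.

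Proneural and neuron genes, which mark cells that have left the progenitor state, lay partly on the same side. DESeq2 called 0 of 49 tested models and gave 42 of them no adjusted p. In edgeR, 1 fell, 0 rose and 48 did not pass, where 0.0935% of all tested genes fell. At an unadjusted p under 0.05, 8 were lower and 1 higher, against 4.16% and 3.35% of all tested genes. In 29 of the 49 the log2 fold change was negative, against 50.1% of all tested genes, and the median was -0.11. The Notch ligand gene dll1.S fell, to 14.3 and 13.5 CPM with picrotoxin, against 19.8 and 23.1 CPM in controls (log2 fold change -0.63, adjusted p = 0.0339, edgeR). It did not pass when control replicate 2 was left out (-0.51, adjusted p = 0.478), when picrotoxin replicate 2 was (-0.58, adjusted p = 0.0660), with library totals only (-0.52), or with chromosome medians removed (-0.55, adjusted p = 0.0792). The neuronal tubulin gene tubb2b.L was at -0.42 (adjusted p = 0.133), the zinc finger factor gene myt1.L at -0.39 (adjusted p = 0.252) and the peripherin gene prph.S at -0.46 (adjusted p = 0.284). The summed level of 9 neuron marker models was 259 and 226 CPM with picrotoxin, against 312 and 283 CPM in controls. Of the 9, 6 had both picrotoxin libraries below both control libraries, against 18.9% of all tested genes. The groups overlapped for tubb3.L (log2 fold change 0.08), stmn2.L (-0.11) and stmn2.S (-0.22). The 9 neuron markers too belong to gene lists chosen with earlier results of these data known. Their sum thus stood lower together with the SoxB1 and msi1 models, and the part of neurons in the result was not tested.

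Cell cycle genes, which dividing progenitors share with other dividing cells, had a median of -0.04 over 49 tested models. DESeq2 called 0 and gave 18 of the models no adjusted p. In edgeR 0 passed, with 2 higher and 2 lower at an unadjusted p under 0.05. Among all tested genes 3.35% were higher and 4.16% lower at that p, so the cell cycle counts were near the background.

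Markers of tissues other than neural tube were set beside these values. Epidermis markers, 7 models, summed to 7001 and 7732 CPM with picrotoxin, against 6696 and 6315 CPM in controls, and the keratin gene krt12.5.S rose (log2 fold change 0.80, adjusted p = 0.000593, edgeR), but it did not pass when control replicate 2 was left out (adjusted p = 0.0584) or with library totals only (adjusted p = 0.238). Neural crest markers, 6 models, summed to 110 and 104 CPM with picrotoxin, against 98.0 and 96.6 CPM in controls. Chosen after the values were seen, the epidermis sum without krt12.5.S was 5862 and 6502 CPM with picrotoxin, against 6053 and 5601 CPM in controls, and overlapped. The neural crest sum without the copies of the crest factor tfap2b was 38.9 and 35.9 CPM with picrotoxin, against 35.1 and 38.3 CPM in controls, and overlapped too. Skeletal muscle markers, 9 models, summed to 8103 and 7066 CPM with picrotoxin, against 8574 and 7061 CPM in controls, and overlapped. Lens and placode markers, 8 models of which 4 were tested, summed to 49.9 and 52.7 CPM with picrotoxin, against 46.9 and 54.6 CPM in controls, and overlapped too. Tailbud markers, 10 models, stood at 93.1 and 116 CPM with picrotoxin, against 132 and 115 CPM in controls, and overlapped. Notochord markers, 6 models, stood at 19.4 and 25.1 CPM with picrotoxin, against 28.5 and 26.1 CPM in controls. Picrotoxin replicate 1 was the lowest library for both the tailbud and the notochord sum. Both picrotoxin libraries lay below both control libraries in 5 tailbud models and above both in 0. For epidermis the counts were 0 below and 4 above, and for skeletal muscle 1 and 3. For neural crest they were 1 and 2, for lens and placodes 2 and 2, and for notochord 1 and 0. Among all tested genes the shares were 18.9% below and 18.2% above. Over the wider lists, the median log2 fold change was 0.07 for 19 tested epidermis and ciliated cell models, 0.11 for 21 neural crest models and 0.00 for 23 skeletal muscle models. It was -0.17 for 20 placode, lens and lateral line models, -0.11 for 25 tailbud models and -0.20 for 15 notochord and floor plate models. In these 6 lists krt12.5.S was the single model past the threshold in edgeR. At an unadjusted p under 0.05 in edgeR, 4 tailbud models were lower and 1 higher, and 4 muscle models lower and 4 higher. Notochord and floor plate models had 1 lower and 0 higher. Epidermis and ciliated cell models had 0 lower and 2 higher, as had neural crest models, and the placode list had 0 of either. Among all tested genes 4.16% were lower and 3.35% higher at that p. The part of these tissues in the SoxB1 and msi1 values was not tested.

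**Figure D5:**
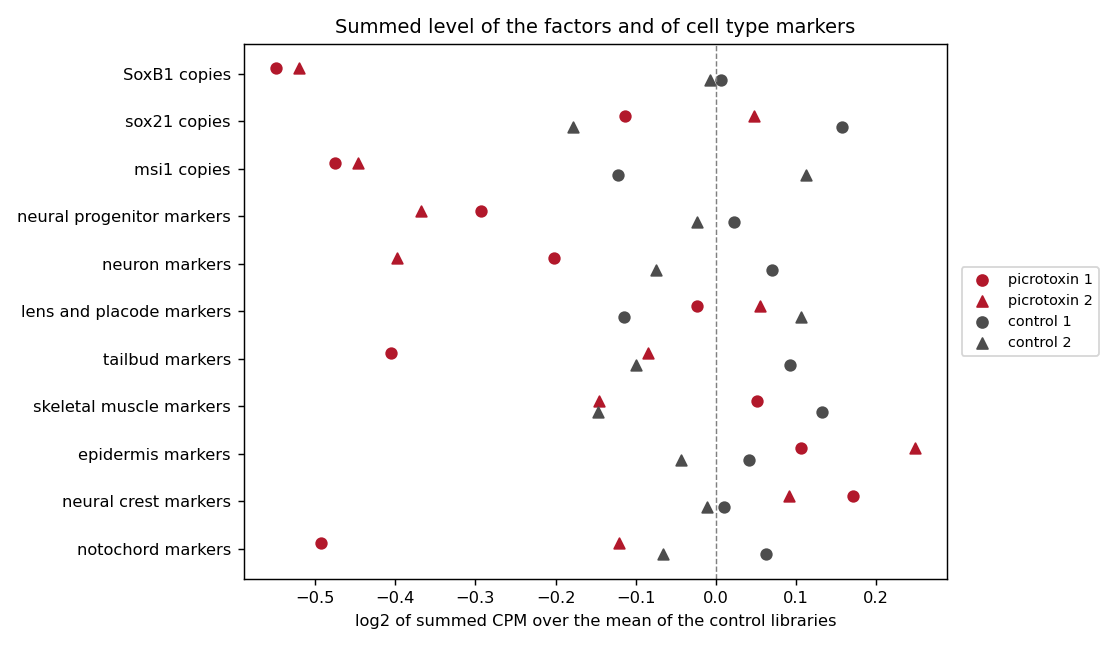
The plot gives, for the summed CPM of each set, the log2 ratio to the mean of the control libraries in the 2 picrotoxin libraries (red) and the 2 control libraries (grey), with circles for replicate 1 and triangles for replicate 2. SoxB1 copies (-0.55 and -0.52 with picrotoxin) and msi1 copies (-0.48 and -0.45) lie left of neural progenitor markers (-0.29 and -0.37) and neuron markers (-0.20 and -0.40), and epidermis markers (0.11 and 0.25), which include krt12.5.S, lie right of 0. Notochord markers (-0.49 and -0.12 with picrotoxin) and tailbud markers (-0.41 and -0.09) also lie left of 0. For tailbud markers control replicate 2 lies at -0.10, so their groups overlap. Neural crest markers (0.17 and 0.09) lie right of 0. The largest part of the neural progenitor sum is slc1a3.L (117 to 145 CPM, log2 fold change -0.21). The median log2 fold change of the 9 progenitor models is -0.42, so the sums do not set the members apart from them.

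Genes with the most similar pattern were found by the root mean square distance of their centred log2 CPM over the 4 libraries, among 9825 genes whose mean was 10 CPM or more. Nearest to the mean SoxB1 profile were elavl3.L (distance 0.04), lrpap1.L (0.05), tubb2b.L (0.05), rad17.L (0.06) and tchp.L (0.06). elavl3.L and tubb2b.L are neuron markers. Nearest to the msi1 profile were hypk.S (0.02), tpbg.S (0.02), igfbpl1.L (0.03), anxa3.S (0.04) and rad17.L (0.04). With 4 libraries these distances only describe which genes shared the order of the libraries. Of the 9 genes, lrpap1.L fell with picrotoxin (log2 fold change -0.57, adjusted p = 0.0320, edgeR), but did not pass when control replicate 2 was left out (adjusted p = 0.443), with library totals only, with chromosome medians removed (adjusted p = 0.107) or in DESeq2 (adjusted p = 0.0644). The others ranged from -0.49 for anxa3.S to -0.42 for tubb2b.L and did not pass.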

How the data were processed

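RNA was sequenced from 4 pooled libraries and the kit used keeps strand, per the labels' protocols. The authors deposited unscaled estimated counts for 80178 RefSeq transcripts. For the aligner, the counting tool and the build, the entry is: not given in the sources used here. All 80178 identifiers, version included, were found in the Xenopus_laevis_v10.1 RefSeq annotation and summed to 39176 genes, which were rounded to whole counts; the 48 ribosomal RNA models stayed in the totals. That table gave names, chromosomes and the order of genes along them. The gene order was used only for the alternative with running chromosome medians removed, and no lengths were used.

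Genes were filtered with filterByExpr, scaled with TMM and compared with edgeR 4.0.16 (glmQLFit with robust = TRUE, glmQLFTest, R 4.3.3) in two-sided tests. The p-values of 26752 genes were adjusted by Benjamini-Hochberg, and 0.05 was the threshold. CPM values are TMM scaled. Standard errors came from the F statistic, and intervals use its degrees of freedom. The biological coefficient of variation was 8.80%. L over S ratios, log2 of counts plus 0.5, were tested with limma 3.58.1 over 6299 pairs. DESeq2 1.42.0 was an alternative. The edgeR and limma tests were checked on simulated counts, with changes set only in well-counted genes. That check does not cover genes as sparse as the sox1 and sox21 copies. The edgeR, limma and DESeq2 p-values rest on the spread between pools, moderated over all genes or pairs. Whether that spread includes differences between clutches is not known.

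The members and the 12 gene lists were chosen with earlier results of these data known, so no p was adjusted over members or a list alone. The genes of the marker sets all belong to these lists. Of 243 list symbols, 235 matched, 5 by synonym. Named genes were all 9 members, up to 4 models per list with the smallest p, and the 5 nearest in pattern to SoxB1 and to msi1. The forebrain and lens models, sox14, msi2, numbl and cdkn1a were added outside that rule. Other models the rule allows are not all named, and some are not reported here.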

Additional observations from a re-analysis of the deposited data

How the results depend on the processing

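The count of genes called with picrotoxin, 47 in all, was 22 with library totals only, 17 with DESeq2, 189 with no filter on low counts and 19 with running chromosome medians removed. It ran from 15 to 158 with 1 library left out. The cause of these moves was not tested. Library totals only also moved the median log2 fold change of all tested genes to 0.11, so that the members' values there are shifted upward by about that much. The count of homeolog pairs called, 5, was 27 under the replicate block and ran from 2 to 22 with 1 library left out. Same-numbered libraries did not deviate together over all genes (correlation of their deviations -0.02). With 1 such difference per group, this cannot decide whether same-numbered pools share a clutch. The replicate block left 41 genes called and none of the 9 SoxB1, sox21 and msi1 models past the threshold.

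Some values near 0, none past the threshold, changed sign. With 1 library left out, log2 fold changes ran from -0.67 to 0.012 for sox1.L, -0.25 to 0.0078 for sox21.L, -0.074 to 0.41 for sox21.S, -0.014 to 0.095 for numbl.L, -0.050 to 0.12 for cdkn1a.L and -0.19 to 0.29 for cdkn1a.S. With copies summed sox21.S took the value of both, -0.018. The L over S difference ran from -0.058 to 0.034 for msi1 and -0.16 to 0.025 for sox3. With 16 to 454 counts per library in a member, counting error limits the sox1 and sox21 copies most.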
